A study of Mus musculus with 18 samples.

Results

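The genes described here are 40 genes of the mouse lysosome: 11 proteases and peptidases, 6 glycosidases, 6 proteins of lipid breakdown and cholesterol export, 7 membrane proteins and channels with Gpnmb among them, progranulin, 3 MiT/TFE transcription factors and 6 subunits of the V-ATPase. They were chosen by name, with earlier results of these data known. Counts of members are therefore set beside shares of all genes as description only. The gene identifiers of the count table were matched to the listed symbols, and all 40 were found among 45706 genes. All 40 also passed the filter on low counts, which left 11308 genes for testing. Poly(A) RNA had been sequenced from bone marrow-derived macrophages, which are macrophages grown in culture from mouse bone marrow, here with 30% L929-conditioned medium as the source of growth factor. All samples were labelled C57BL/6, and an age of 12 days was given without saying of what. Wild-type (WT) cells were set against cells labelled RelA-TA-KI, which carry altered Rela and are called the knock-in below. Each genotype was sampled unstimulated and 0.5, 1, 3 and 8 h after LPS (100 ng/ml) or TNF (10 ng/ml). LPS is a bacterial membrane component sensed by TLR4, TNF is an inflammatory cytokine, and Rela encodes the NF-kB subunit RelA. What the knock-in alters is not spelled out in the labels, and gene counts do not show it. The design thus has 9 conditions, each with 1 WT and 1 knock-in library (18 libraries in all), and every comparison takes its error from how the genotype pairs differed between conditions. The labels name neither animals nor cultures as separate sources. A p-value therefore covers only the spread between these libraries, and genotype cannot be told apart from culture.

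The lysosome is the acidic compartment in which proteases, glycosidases and lipases take apart what a macrophage has engulfed or removed from its own cytoplasm. The V-ATPase, a proton pump with a cytoplasmic V1 part and a membrane V0 part, keeps it acidic, and membrane proteins such as Lamp1 and Lamp2 line it. TFEB, TFE3 and MITF, the transcription factors of the MiT/TFE family, bind a motif built on TCACGTG (the CLEAR-type E-box) in the promoters of many lysosomal genes, and their activity is set largely by whether the protein is held in the cytoplasm, which RNA counts do not measure. Gpnmb is a membrane glycoprotein that MiT/TFE factors are known to induce in macrophages with loaded lysosomes.

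The promoters of several members carry the CLEAR-type E-box, and 6 of these are shown because Mitf and Tfeb, which encode factors that bind it, were the members that changed most at 3 h of LPS. They include every member with more than 1 separate match (Lamp1, Mcoln1, Gla, Ctsd and Ctsa), and Atp6v1a as a V-ATPase subunit with 1. RefSeq promoter windows of 300 bases (assembly GRCm38.p6) were at hand for 33 of the 40 members and not for Ctsh, Npc1, Atp6v1b2, Asah1, Atp6v0d2, Atp6v1h and Ctsb. TCACGTG on either strand was found in 9 of the 33 genes (27.3%) and in 1160 of all 27025 genes with a window (4.29%). The 9 were Ctsa, Ctsd, Mcoln1, Lamp1, Atp6v0d1, Gaa, Lgmn, Atp6v1a and Gla. The core CACGTG, which lies inside the longer motif, was present in 10 of the 33 (30.3%, against 8.09% of all genes), and Ctsl was the gene it added. In the stretches below, all upstream of the start and written 5′ to 3′ on the gene's strand, capitals mark each match, and a palindromic TCACGTGA is a match on both strands.
Lamp1, chr8:13159041-13159160, plus strand: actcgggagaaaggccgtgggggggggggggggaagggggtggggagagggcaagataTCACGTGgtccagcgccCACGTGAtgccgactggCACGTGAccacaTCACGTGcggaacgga
Mcoln1, chr8:3500399-3500518, plus strand: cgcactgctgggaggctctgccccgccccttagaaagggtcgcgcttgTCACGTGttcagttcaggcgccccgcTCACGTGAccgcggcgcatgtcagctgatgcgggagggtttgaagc
Gla, chrX:134601006-134601253, minus strand: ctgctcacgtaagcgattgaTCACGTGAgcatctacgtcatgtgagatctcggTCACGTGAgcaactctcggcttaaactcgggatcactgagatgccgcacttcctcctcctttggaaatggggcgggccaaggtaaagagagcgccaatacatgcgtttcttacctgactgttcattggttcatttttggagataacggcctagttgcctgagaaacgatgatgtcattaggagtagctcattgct
Ctsd, chr7:142387828-142388077, minus strand: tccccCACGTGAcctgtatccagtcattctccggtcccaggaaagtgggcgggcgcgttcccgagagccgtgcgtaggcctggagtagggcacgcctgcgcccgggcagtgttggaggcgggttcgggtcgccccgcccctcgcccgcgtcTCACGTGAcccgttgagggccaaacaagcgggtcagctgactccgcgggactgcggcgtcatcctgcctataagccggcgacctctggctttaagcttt
Ctsa, chr2:164833653-164833772, plus strand: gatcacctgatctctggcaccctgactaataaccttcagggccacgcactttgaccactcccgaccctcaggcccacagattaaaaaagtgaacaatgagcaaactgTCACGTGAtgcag
Atp6v1a, chr16:44139260-44139411, minus strand: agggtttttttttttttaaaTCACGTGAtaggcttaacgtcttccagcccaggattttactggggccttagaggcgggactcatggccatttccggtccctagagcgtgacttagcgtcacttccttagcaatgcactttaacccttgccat
In Lamp1 the 4 matches began at -62, -45, -28 and -16 relative to the start, all within the last 62 bases before it. Another match of Ctsa lies just after its start and is not in the stretch shown.

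A 10-base kB-type motif, the class of site that NF-kB subunits bind, was found on either strand in 8 of the 33 members (24.2%) and in 9.55% of all genes with a window. The 8 were Ctsz, Mitf, Lamp1, Psap, Grn, Lgmn, Neu1 and Tfe3. Mitf has several start sites, and the window that held the match is shown with it in capitals, beside the Gpnmb promoter, in which neither motif was found.
Mitf, chr6:97929620-97929816, plus strand: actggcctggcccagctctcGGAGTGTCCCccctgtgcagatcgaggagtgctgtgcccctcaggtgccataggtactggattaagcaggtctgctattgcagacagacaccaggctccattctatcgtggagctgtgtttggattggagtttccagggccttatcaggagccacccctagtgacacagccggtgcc
Gpnmb, chr6:49036348-49036517, plus strand: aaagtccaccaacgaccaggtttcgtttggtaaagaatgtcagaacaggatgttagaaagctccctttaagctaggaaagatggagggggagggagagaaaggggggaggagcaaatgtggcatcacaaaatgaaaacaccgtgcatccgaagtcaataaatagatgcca
A match describes letters only and says nothing of binding.

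Libraries held 4663650 to 6721917 counts. Members made up 9.40% of all counts in unstimulated WT cells and 9.70% in unstimulated knock-in cells, so this short list is a large part of the RNA measured. Gpnmb alone held 1.33% of counts in WT cells after 8 h of LPS and 2.61% in knock-in cells after 8 h of TNF, its lowest and highest shares. RPKM values are reads scaled to library size and to the gene length given with the counts, which need not be that of the transcript expressed. By RPKM in unstimulated cells, the highest members were Ctsd (4905 in WT, 5021 in knock-in), Gpnmb (4560 and 5067), Psap (3543 and 3758) and Ctsb (3187 and 3353). Tfeb (3.25 and 4.05), Ctsk (6.22 and 5.22) and Mitf (6.29 and 8.25) were lowest, with 26 to 189 counts per library for Tfeb. Macrophage markers were present in every library, none of 9 at 0, with a summed level of 10111 to 14605 CPM. Ctsk and Atp6v0d2 are also known from osteoclasts, and the osteoclast markers summed to 28.1 to 72.9 CPM, with Calcr at 0. In bulk RNA, fewer cells of a type and less RNA per cell cannot be told apart.

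Levels below are CPM (counts scaled to library size) with TMM factors, an approach that sets most genes as unchanged between libraries. That choice matters after LPS. With library totals in place of TMM, the median of all genes moved by -0.533 on the log2 scale at 3 h of LPS and by -0.955 at 8 h, and by -0.127 and -0.249 at 3 and 8 h of TNF. With upper-quartile factors it moved by -0.273 and -0.397 in LPS. Among all genes called at 3 h of LPS, 2809 rose and 2571 fell with TMM, whereas 17.3% of calls were higher with library totals and 29.1% with upper-quartile factors. At 8 h of LPS 3827 rose and 3834 fell, against 18.5% and 32.9% of calls higher. For TNF the TMM calls were 859 higher and 663 lower at 3 h (31.8% and 39.1% higher with the other scalings) and 1934 and 1677 at 8 h (24.8% and 37.1%). A change in LPS is therefore a change relative to most genes, and members called under TMM, DESeq2 size factors, upper-quartile factors and library totals alike are named as called under all 4 scalings. Library totals and upper-quartile factors lowered values in both stimuli, so a fall called with TMM could hardly be lost. At 8 h of LPS, 4 of 4 falls but only 7 of 27 rises were called under all 4. For a fall, that label therefore adds little.

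At 0.5 and 1 h no member passed the test in either stimulus. At 0.5 h of LPS 0 members rose or fell (0.875% and 0.0442% of all tested genes did), with 0 below an unadjusted p of 0.05, and at 1 h again 0 (4.25% and 2.59%), with 1 below it. DESeq2 called 1 member higher at 1 h of LPS and library totals 1 lower. In TNF no member passed at 0.5 h (0.38% of genes higher, 0% lower) or at 1 h (0.902% and 0.168%), and 0 reached an unadjusted p of 0.05 at either time. At those times DESeq2 and limma-voom called 0 members, apart from the 1 named above for LPS at 1 h.

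Most change came later. At 3 h of LPS 16 members rose and 2 fell, against 24.8% and 22.7% of all tested genes. By 8 h 27 rose and 4 fell, against 33.8% and 33.9%, and the median member stood at 0.44 on the log2 scale while the median of all genes stood at -0.04. The balance of members depended on the scaling: library totals gave 1 higher and 28 lower at 3 h and 7 and 28 at 8 h, and upper-quartile factors 6 and 17 at 3 h and 11 and 15 at 8 h. TNF raised 4 members and lowered 0 at 3 h, against 7.6% and 5.86% of genes, with 8 below an unadjusted p of 0.05 and 0 lower by DESeq2 and limma-voom. It raised 20 and lowered 3 at 8 h, against 17.1% and 14.8%, while library totals gave 8 higher and 7 lower and upper-quartile factors 13 and 5. Over the 4 times together, 31 members changed in LPS and 16 in TNF, while 72.2% and 30.4% of all genes did, so the LPS share is near that of genes in general. The LPS and TNF responses share the unstimulated libraries, and their values are set side by side here. The counts that rest on few libraries are these: the 16 at 3 h of LPS became 8 without the unstimulated knock-in library and 9 without the knock-in library at 3 h of LPS. The 2 lower at that time became 1 without unstimulated WT and 4 without either library at 8 h of LPS. The 4 at 3 h of TNF became 0 without unstimulated WT or WT at 3 h of TNF, 1 without the knock-in at 3 h of TNF, and 2 without the unstimulated knock-in or either library at 1 h of LPS. Of the 20 at 8 h of TNF, 13, 12 and 11 were left without unstimulated WT, unstimulated knock-in and knock-in TNF 8 h. The 16 over all TNF times became 10 without WT and 5 without knock-in cells at 8 h. The 3 lower at 8 h of TNF became 0 without unstimulated WT, and 1 without WT at 8 h of TNF, the unstimulated knock-in, the knock-in at 3 h of TNF, or either genotype's library at 0.5 or 1 h of LPS or at 1 h of TNF.

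**Figure D1:**
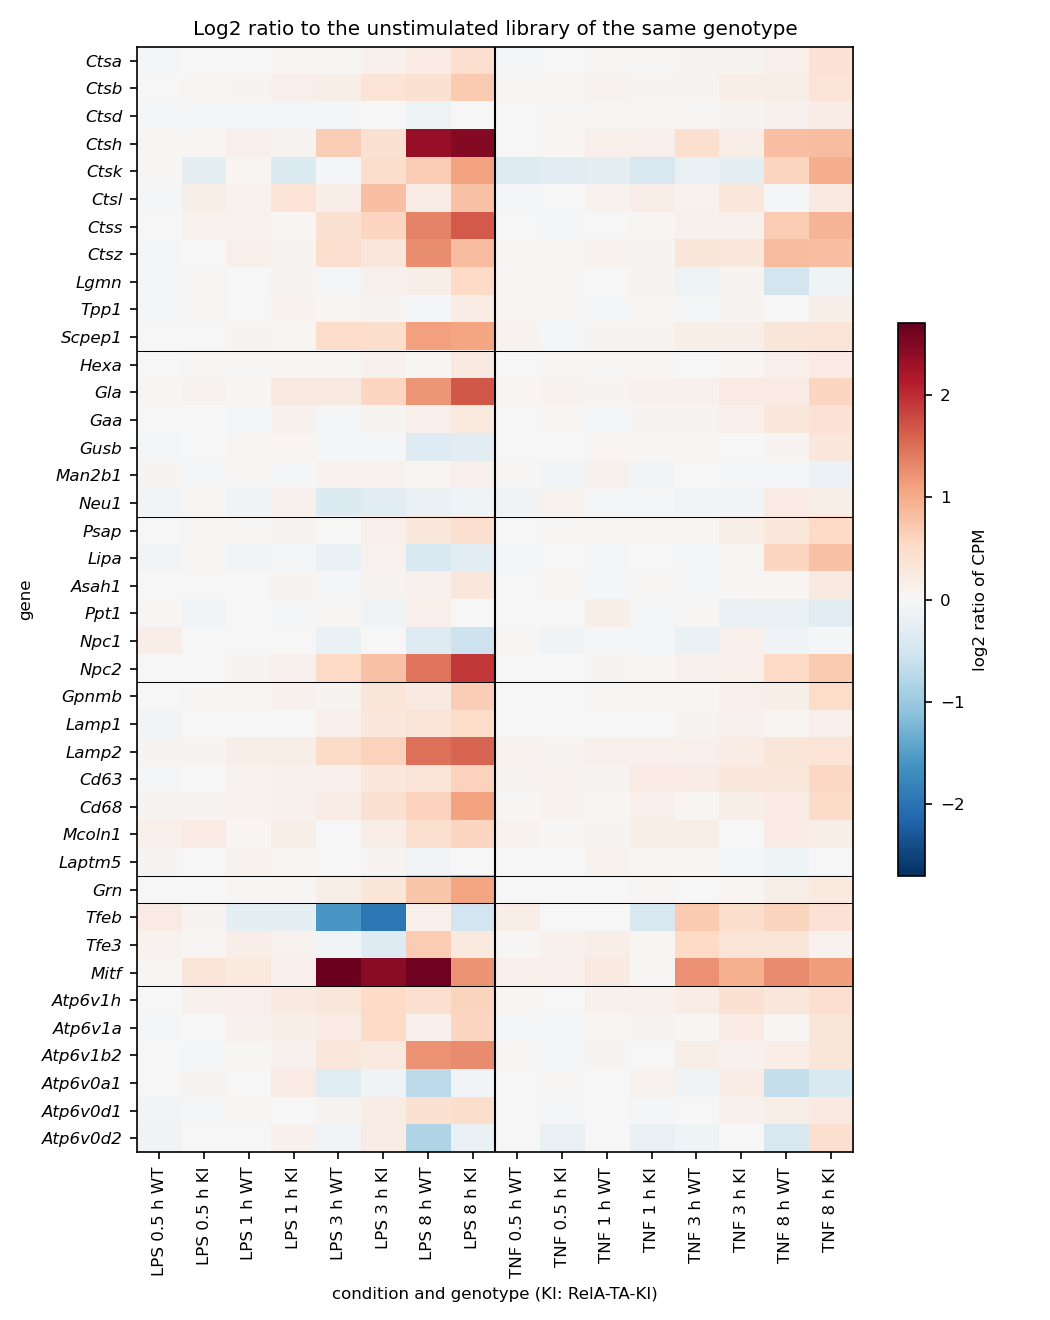
Log2 ratio of each member's CPM to the unstimulated library of the same genotype, 40 genes in rows grouped by role and 16 stimulated libraries in columns, red higher and blue lower. The early columns are pale, and the strongest colours are at 3 and 8 h of LPS, with Mitf and Ctsh red and Tfeb blue at 3 h.

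The MiT/TFE factors did not move together in LPS, whereas at 3 h of TNF all 3 were called higher with TMM and 0 with library totals. Mitf, a factor best known from melanocytes and osteoclasts, stood at 39.1 CPM in unstimulated WT cells and at 40.1, 47.1, 246 and 243 after 0.5, 1, 3 and 8 h of LPS. Its knock-in values were 51.3 unstimulated, then 65.3, 56.3, 278 and 119.6. In TNF, WT Mitf went through 42.8, 46.5, 91.9 and 95.1 CPM, and knock-in Mitf through 56.7, 52.6, 99.2 and 112. Every library at 3 and 8 h lay above every unstimulated and early one in both stimuli. The fitted change was 2.55 ± 0.31 (log2, SE) at 3 h of LPS (adjusted p = 5.1e-05) and 2.03 ± 0.31 at 8 h (adjusted p = 0.00013), called under all 4 scalings. Only the WT library kept its 3 h level to 8 h, so without it the 8 h value was 1.23, and without the knock-in library it was 2.55. TNF raised Mitf by 1.09 ± 0.30 at 3 h (adjusted p = 0.038) and 1.20 ± 0.30 at 8 h (adjusted p = 0.011). The 3 h TNF call was lost in 17 of 25 alternatives, among them library totals (0.96), upper-quartile factors (adjusted p = 0.059) and no filter on low counts (adjusted p = 0.12), and lost most clearly without unstimulated WT (adjusted p = 0.22). The 8 h TNF call was lost without unstimulated WT (adjusted p = 0.091) and without the knock-in at 8 h of TNF (adjusted p = 0.066).

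Tfeb, the factor most often named as the master regulator of lysosomal genes, went the other way in LPS at 3 h. WT Tfeb was 18.4 CPM unstimulated and 21.6, 15.5, 6.18 and 20.3 through the LPS times, and knock-in Tfeb was 22.9 and then 24.1, 19.2, 5.95 and 15.9. Both libraries at 3 h were well below all 16 others, and both genotypes were higher again at 8 h. The fall at 3 h was -1.75 ± 0.18 (adjusted p = 3.4e-06), called under all 4 scalings, and at 8 h the value was -0.18 ± 0.16 (adjusted p = 0.32). In TNF, Tfeb instead stood at 30.3 and 28.1 CPM in WT and 32.1 and 30.1 in knock-in cells at 3 and 8 h, above every other library of its genotype. These rises were 0.60 ± 0.14 (adjusted p = 0.011) and 0.50 ± 0.14 (adjusted p = 0.013), but neither was called with library totals (0.47 and 0.25) or without unstimulated WT (adjusted p = 0.15 and 0.16). Each was also lost without either library of its own time, and the 8 h call with upper-quartile factors (0.38, adjusted p = 0.062). Genes of the same library share its scaling, so the ratio of Mitf to Tfeb counts needs none. On the log2 scale it went from 1.08 in unstimulated WT cells to 5.32 at 3 h of LPS and 3.58 at 8 h, and from 1.16 to 5.55 and 2.91 in the knock-in.

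Tfe3, the X-linked member of the family, moved less than Mitf and Tfeb at 3 h of LPS. WT Tfe3 was 93.3 CPM unstimulated, 99.6, 105, 88.2 and 149.9 through the LPS times and 95.8, 105, 135 and 117 through the TNF times. In the knock-in it was 97.0, then 99.8, 104, 76.0 and 117 in LPS and 105, 101, 123 and 104 in TNF. It was lowest at 3 h of LPS in both genotypes, where the change of -0.21 ± 0.11 did not pass (adjusted p = 0.13). At 8 h of LPS it rose by 0.48 with TMM, a value that turned to -0.47 with library totals. With upper-quartile factors that rise was not called (0.09, adjusted p = 0.51). At 3 h of TNF Tfe3 rose by 0.44 ± 0.11 (adjusted p = 0.015). The TNF call was lost with library totals (0.31), upper-quartile factors (adjusted p = 0.054), and without unstimulated WT (adjusted p = 0.16) or either library at 3 h of TNF (adjusted p = 0.086 for WT, 0.056 for knock-in).

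**Figure D2:**
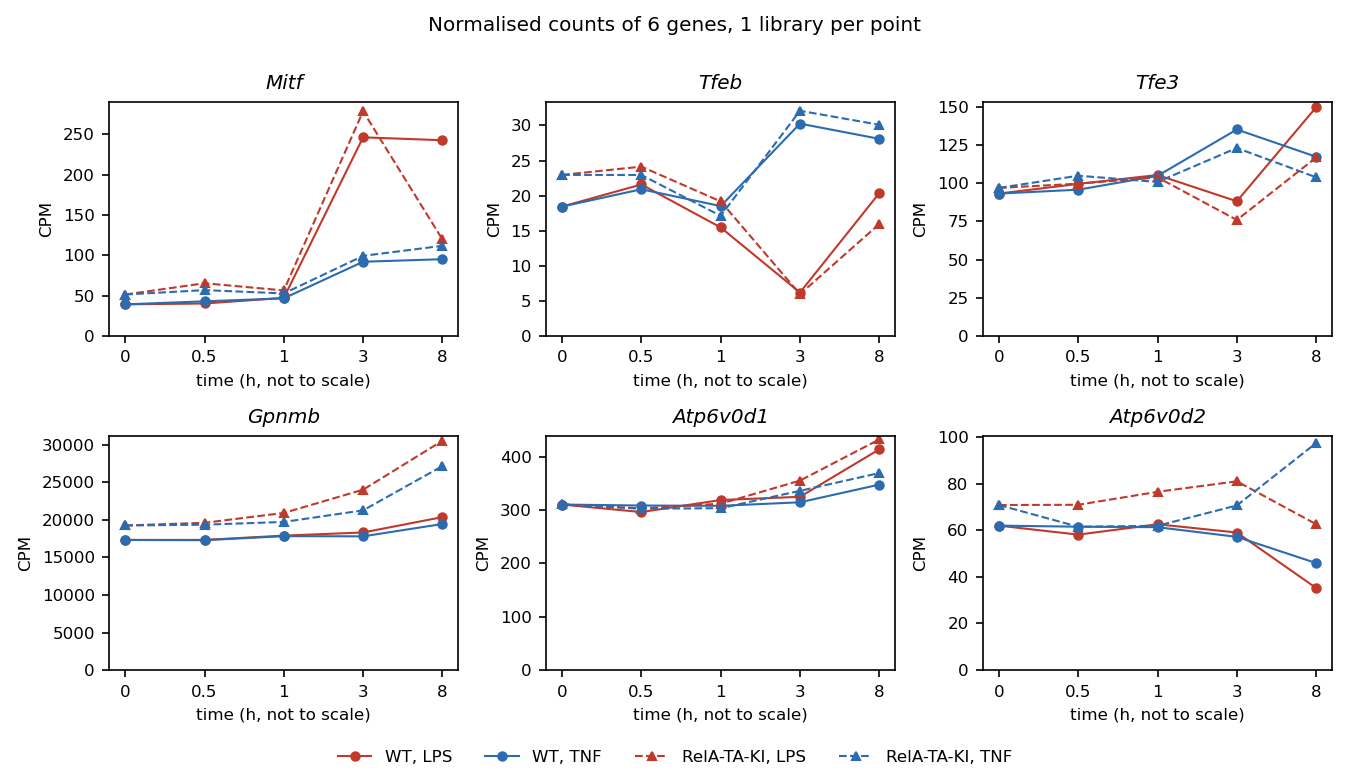
CPM from 0 of Mitf, Tfeb, Tfe3, Gpnmb, Atp6v0d1 and Atp6v0d2 at 0, 0.5, 1, 3 and 8 h (spaced evenly, not to scale), 1 library per point; circles and solid lines are WT, triangles and dashed lines the knock-in, red LPS and blue TNF. Mitf climbs to 246 and 278 and Tfeb drops to 6.18 and 5.95 at 3 h of LPS, and knock-in Gpnmb reaches 30521 at 8 h.

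Of the 11 proteases and peptidases, 6 rose at 3 h of LPS, 9 rose at 8 h of LPS and 7 rose with 1 lower at 8 h of TNF, beside the 24.8%, 33.8% and 17.1% of all genes that rose. With library totals these counts were 0 higher and 5 lower, 2 and 6, and 4 and 1. Cathepsin H (Ctsh), an aminopeptidase, changed most of all members at 8 h of LPS. In WT cells it was at 74.0 CPM unstimulated, 75.8, 81.0, 118 and 377 in LPS and 74.5, 81.8, 99.4 and 129.6 in TNF. Knock-in values were 81.2 unstimulated, 84.0, 85.3, 108 and 451 in LPS and 84.8, 90.0, 91.7 and 145 in TNF. The order of LPS above TNF above unstimulated at 8 h held in both genotypes, with a rise of 2.41 ± 0.10 in LPS (adjusted p = 2.3e-10) and 0.82 ± 0.10 in TNF (adjusted p = 3.3e-05). Cathepsin S (Ctss), which trims the invariant chain of MHC class II, was 926 CPM in unstimulated WT, 929, 986, 1225 and 2333 in LPS and 927, 929.9, 999 and 1491 in TNF. Knock-in Ctss was 970.1, then 1037, 1008, 1455 and 3045 in LPS and 951, 1010.1, 1056 and 1823 in TNF. It was 2.82-fold higher at 8 h of LPS (adjusted p = 1.6e-08) and its log2 change at 8 h of TNF was 0.80 ± 0.10 (adjusted p = 3.4e-05). Ctsh and Ctss were called under all 4 scalings at 8 h of both stimuli.

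The carboxypeptidase cathepsin Z (Ctsz) rose by 1.06 ± 0.10 at 8 h of LPS (adjusted p = 8.5e-07) and by 0.83 ± 0.10 at 8 h of TNF (adjusted p = 4.2e-05). WT Ctsz was 993 CPM unstimulated, 978, 1089, 1345 and 2379.6 in LPS and 1014, 1057, 1244 and 1795 in TNF. The knock-in values were 1012, then 1006, 1068, 1255 and 1797 in LPS and 1036, 1072, 1229 and 1764 in TNF, so at 8 h LPS stood above TNF by little in the knock-in. The TNF rise of Ctsz held under all 4 scalings, and the LPS value was 0.11 (adjusted p = 0.41) with library totals. Scpep1, a serine carboxypeptidase, rose by 1.09 ± 0.07 at 8 h of LPS, from 471 to 1017 CPM in WT and from 566 to 1184 in knock-in cells, but its value was 0.13 (adjusted p = 0.11) with library totals. Ctsk, the collagen-degrading cathepsin of osteoclasts, was low throughout (5.83 to 16.8 CPM) and rose by 0.89 ± 0.22 at 8 h of LPS (adjusted p = 0.003) and by 0.78 at 8 h of TNF, the second under all 4 scalings, while the first turned to -0.06 with library totals. Smaller LPS rises at 8 h were 0.57 for Ctsb, 0.50 for Ctsl, 0.36 for Lgmn and 0.34 for Ctsa. With library totals these 4 turned to -0.39, -0.46, -0.60 and -0.62. Upper-quartile factors gave 0.10 for Ctsl, -0.04 for Lgmn and -0.06 for Ctsa. The change was 0.21 in WT and 0.79 in knock-in cells for Ctsl, and 0.17 and 0.54 for Lgmn. Neither gene was called without the knock-in library at 8 h of LPS, with Ctsl at 0.27 and Lgmn at 0.20. Both calls were also lost without the unstimulated knock-in library (0.36 and 0.27). Cathepsin D (Ctsd), the main aspartic protease, was among the most abundant members and did not pass at 8 h of LPS (-0.06) or TNF, and Tpp1, a tripeptidyl peptidase, stood at 0.09 in LPS. The asparaginyl peptidase legumain (Lgmn) fell by 0.31 ± 0.11 at 8 h of TNF (adjusted p = 0.038), from 1433 to 1014 CPM in WT and from 1761 to 1615 in knock-in cells. That call was lost in 10 of 25 alternatives, with -0.23 (adjusted p = 0.27) without unstimulated WT and -0.19 (adjusted p = 0.31) without WT at 8 h of TNF.

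Among the 6 glycosidases 2 rose and 1 fell at 8 h of LPS, against 33.8% and 33.9% of all tested genes. With library totals 1 rose and 5 fell. Gla, the alpha-galactosidase A of globoside breakdown, was 267 CPM in unstimulated WT cells, 271, 277, 315 and 608 in LPS and 277, 282, 289 and 311 in TNF. Knock-in Gla was 259, then 276, 305, 388 and 825 in LPS and 278, 279.5, 303 and 385 in TNF. The libraries at 8 h of LPS stood clear of the rest, with a rise of 1.43 ± 0.12 (adjusted p = 1.5e-07) that held under all 4 scalings. Gaa, the acid alpha-glucosidase that clears glycogen, rose by 0.20 in LPS, which turned to -0.75 with library totals and -0.19 with upper-quartile factors, and by 0.35 in TNF. The beta-glucuronidase gene Gusb fell by 0.32 ± 0.08 at 8 h of LPS (adjusted p = 0.0037) and the sialidase gene Neu1 by 0.34 ± 0.09 at 3 h (adjusted p = 0.0057), both under all 4 scalings. WT Gusb was 927 CPM unstimulated, 892, 955, 888 and 727 in LPS and 922, 954, 945 and 975 in TNF, and knock-in Gusb was 965, then 969, 994, 924 and 793 in LPS and 961, 984, 969.6 and 1195 in TNF. In both genotypes the 8 h LPS library of Gusb was the lowest. Neu1 went from 162 to 126 CPM in WT and from 149.7 to 121 in knock-in cells. Hexa (0.14) and Man2b1 (0.09), which encode a hexosaminidase subunit and an alpha-mannosidase, did not pass at 8 h of LPS.

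The cholesterol exporters Npc2 and Npc1, which hand cholesterol from the lumen to the membrane, moved apart in LPS. Npc2 in WT cells was 962 CPM unstimulated, 951, 1012, 1400.4 and 2607 in LPS, and 968, 1012, 1048 and 1392 in TNF. In the knock-in it was 1057, then 1054, 1144, 1838 and 3973 in LPS and 1060.3, 1087, 1159.6 and 1722 in TNF. Npc1 was 498 CPM in unstimulated WT, 566, 493, 439 and 391 in LPS and 515, 482, 441 and 464 in TNF, and in the knock-in 509, then 516, 504, 510.2 and 346 in LPS and 479, 493, 556 and 489 in TNF. The 8 h LPS libraries were thus the highest for Npc2 and the lowest for Npc1 in both genotypes. Npc2 rose by 1.68 ± 0.12 (adjusted p = 2.7e-08) and Npc1 fell by 0.45 ± 0.12 (adjusted p = 0.0034), both under all 4 scalings. Free of any scaling, the log2 ratio of Npc2 to Npc1 counts went from 0.95 to 2.74 in WT and from 1.06 to 3.52 in knock-in cells. Lipa, the acid lipase that frees cholesterol from its esters, differed in direction between the stimuli. WT Lipa was 1418 CPM unstimulated, 1356, 1347, 1257 and 1062 in LPS and 1371, 1366, 1366 and 2134 in TNF. Knock-in Lipa was 1384, then 1412, 1349.9, 1484 and 1142 in LPS and 1394, 1391, 1417 and 2411 in TNF. In both genotypes the lowest library was 8 h of LPS and the highest 8 h of TNF. The LPS change was -0.35 ± 0.08 (adjusted p = 0.0022), the TNF change was 0.69 ± 0.08 (adjusted p = 3.2e-05), and both held under all 4 scalings. Psap, the saposin precursor, rose by 0.42 at 8 h of TNF under all 4 scalings and by 0.36 in LPS, which turned to -0.59 with library totals and -0.04 with upper-quartile factors. Asah1, the acid ceramidase, rose by 0.21 in LPS, which turned to -0.75 with library totals and -0.19 with upper-quartile factors. Ppt1, a palmitoyl-protein thioesterase, fell by 0.24 ± 0.08 at 8 h of TNF (adjusted p = 0.041), a call lost in 17 of 25 alternatives, among them DESeq2 (adjusted p = 0.05), no filter on low counts (adjusted p = 0.12) and no unstimulated knock-in library (adjusted p = 0.25). WT Ppt1 was 112 CPM unstimulated, 114, 110.2, 114 and 123 in LPS and 113, 124, 115 and 97.4 in TNF, and knock-in Ppt1 was 119, then 113, 117, 112 and 118 in LPS and 119, 115, 106 and 98.2 in TNF. The 8 h TNF libraries were the lowest of their genotype. Exons of Ppt1 overlap the more highly counted Cap1 on the opposite strand by 129 bases, and the strand setting of the counts is not given in the sources used here. Overlaps of Ctsa, Ctsb, Ctsz, Scpep1, Npc1, Grn and Atp6v1h with opposite-strand genes involve genes with fewer counts.

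Of the 7 membrane proteins, 6 rose at 8 h of LPS and 4 at 8 h of TNF. Among all tested genes 33.8% and 17.1% rose. With library totals 1 rose and 5 fell in LPS, and 0 rose and 2 fell in TNF. Lamp2, which also serves as a receptor in chaperone-mediated autophagy, was 716 CPM in unstimulated WT cells, 754, 796, 1030.5 and 2019.8 in LPS and 764, 784, 789 and 902 in TNF. Knock-in Lamp2 was 797, then 836, 886, 1219 and 2353 in LPS and 833, 875, 916 and 1023 in TNF. It rose by 1.53 ± 0.07 at 8 h of LPS (adjusted p = 7.6e-10), under all 4 scalings. Its partner Lamp1, the more abundant of the pair, rose by 0.43, which turned to -0.53 with library totals. In unstimulated WT, Lamp1 had 21462 counts against 5792 for Lamp2. RPKM was 1177 against 75.0, with gene lengths of 2255 and 9552 bases. The log2 ratio of Lamp2 to Lamp1 counts went from -1.89 to -0.74 in WT and from -1.77 to -0.71 in knock-in cells at 8 h of LPS. Cd68 (0.85), the scavenger-like sialomucin used as a macrophage marker, the calcium channel gene Mcoln1 (0.50) and the tetraspanin Cd63 (0.49) also rose at 8 h of LPS, and with library totals they turned to -0.11, -0.45 and -0.47. Laptm5, a lysosomal protein of blood cells, did not pass (-0.03).

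Gpnmb, on chr6:49036518-49058182 (mm10), had 63030 to 140019 counts per library, so counting error is small. WT Gpnmb was 17321 CPM unstimulated, 17328, 17895, 18316 and 20357 in LPS and 17288, 17825, 17801 and 19445 in TNF. Knock-in Gpnmb was 19244 unstimulated, 19603, 20914, 24011 and 30521 in LPS and 19352, 19716, 21259 and 27153 in TNF. Within each genotype the 8 h libraries were highest, and the knock-in values climbed further, a difference that is tested below. The response averaged over genotypes was 0.46 ± 0.11 at 8 h of LPS (adjusted p = 0.0021) and 0.33 ± 0.11 at 8 h of TNF (adjusted p = 0.032). The LPS value was 0.24 (adjusted p = 0.046) without the knock-in library at 8 h and 0.58 without the WT one, was 0.06 with upper-quartile factors and turned to -0.50 with library totals. The TNF value was not called with library totals (0.08, adjusted p = 0.41), upper-quartile factors (0.21, adjusted p = 0.11), or without unstimulated WT (adjusted p = 0.06), unstimulated knock-in (adjusted p = 0.23) or the knock-in at 8 h of TNF (0.22, adjusted p = 0.28). The direction of the LPS response of Gpnmb thus rests on the scaling.

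Progranulin (Grn), a secreted and lysosomal glycoprotein that is cut into granulins, rose by 0.24 at 3 h and 0.91 ± 0.09 at 8 h of LPS (adjusted p = 7.7e-07 at 8 h). It went from 2012 to 3388 CPM in WT and from 2245 to 4686 in knock-in cells, and with library totals the 3 h and 8 h values turned to -0.29 and -0.05. At 8 h of TNF its change of 0.22 did not pass.

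Of the 6 V-ATPase subunits, 4 rose and 1 fell at 8 h of LPS, and 2 rose and 1 fell at 8 h of TNF. Among all tested genes 33.8% rose and 33.9% fell in LPS, and 17.1% and 14.8% in TNF. With library totals 1 rose and 5 fell in LPS, and 0 rose and 1 fell in TNF. The V1 subunit B2 (Atp6v1b2), which shares the catalytic ring with subunit A, went from 574 to 1321 CPM in WT and from 685 to 1664 in knock-in cells, a rise of 1.24 ± 0.08 (adjusted p = 1.9e-08) under all 4 scalings. Atp6v1h (0.52) and Atp6v1a (0.36) rose with it, but turned to -0.43 and -0.60 with library totals, and Atp6v1a to -0.04 with upper-quartile factors. The V0 subunit a1 (Atp6v0a1), an isoform of the proton path, fell from 676 CPM in WT to 411 in LPS and 430.0 in TNF at 8 h. In the knock-in it went from 775 to 734 and 581. Its changes of -0.38 ± 0.13 in LPS (adjusted p = 0.018) and -0.54 ± 0.13 in TNF (adjusted p = 0.0059) held under all 4 scalings, but the LPS value was -0.27 (adjusted p = 0.16) without unstimulated WT, -0.19 (adjusted p = 0.13) without WT at 8 h of LPS, and -0.68 without the knock-in at 8 h of LPS. The TNF call was lost without unstimulated WT (-0.42, adjusted p = 0.083).

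The alternative d subunits of V0 differed. Atp6v0d1, the form found in most cells, was 310.0 CPM in unstimulated WT, 296, 318, 325 and 413 in LPS and 308, 308, 314 and 347 in TNF, and in the knock-in 310.3, then 303, 312, 355 and 432 and 302, 303, 336 and 369. Atp6v0d2, known from osteoclasts and macrophages, was 62.0 CPM in unstimulated WT, 58.1, 62.6, 59.0 and 35.2 in LPS and 61.5, 61.3, 57.2 and 45.9 in TNF. Its knock-in values were 70.8, then 70.9, 76.5, 81.0 and 62.6 in LPS and 61.5, 61.9, 70.6 and 97.4 in TNF. The 8 h libraries were thus the lowest WT values of Atp6v0d2, while in the knock-in the 8 h TNF library was the highest. Atp6v0d1 rose by 0.45 ± 0.08 at 8 h of LPS (adjusted p = 0.00015), which was 0.05 (adjusted p = 0.55) with upper-quartile factors and turned to -0.51 with library totals. The Atp6v0d2 values of -0.47 ± 0.23 in LPS (adjusted p = 0.088) and 0.06 ± 0.21 in TNF (adjusted p = 0.86) did not pass. In counts of the same library, the log2 ratio of Atp6v0d2 to Atp6v0d1 went from -2.32 to -3.55 in LPS and -2.92 in TNF in WT, and from -2.13 to -2.79 and -1.92 in the knock-in.

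**Figure D3:**
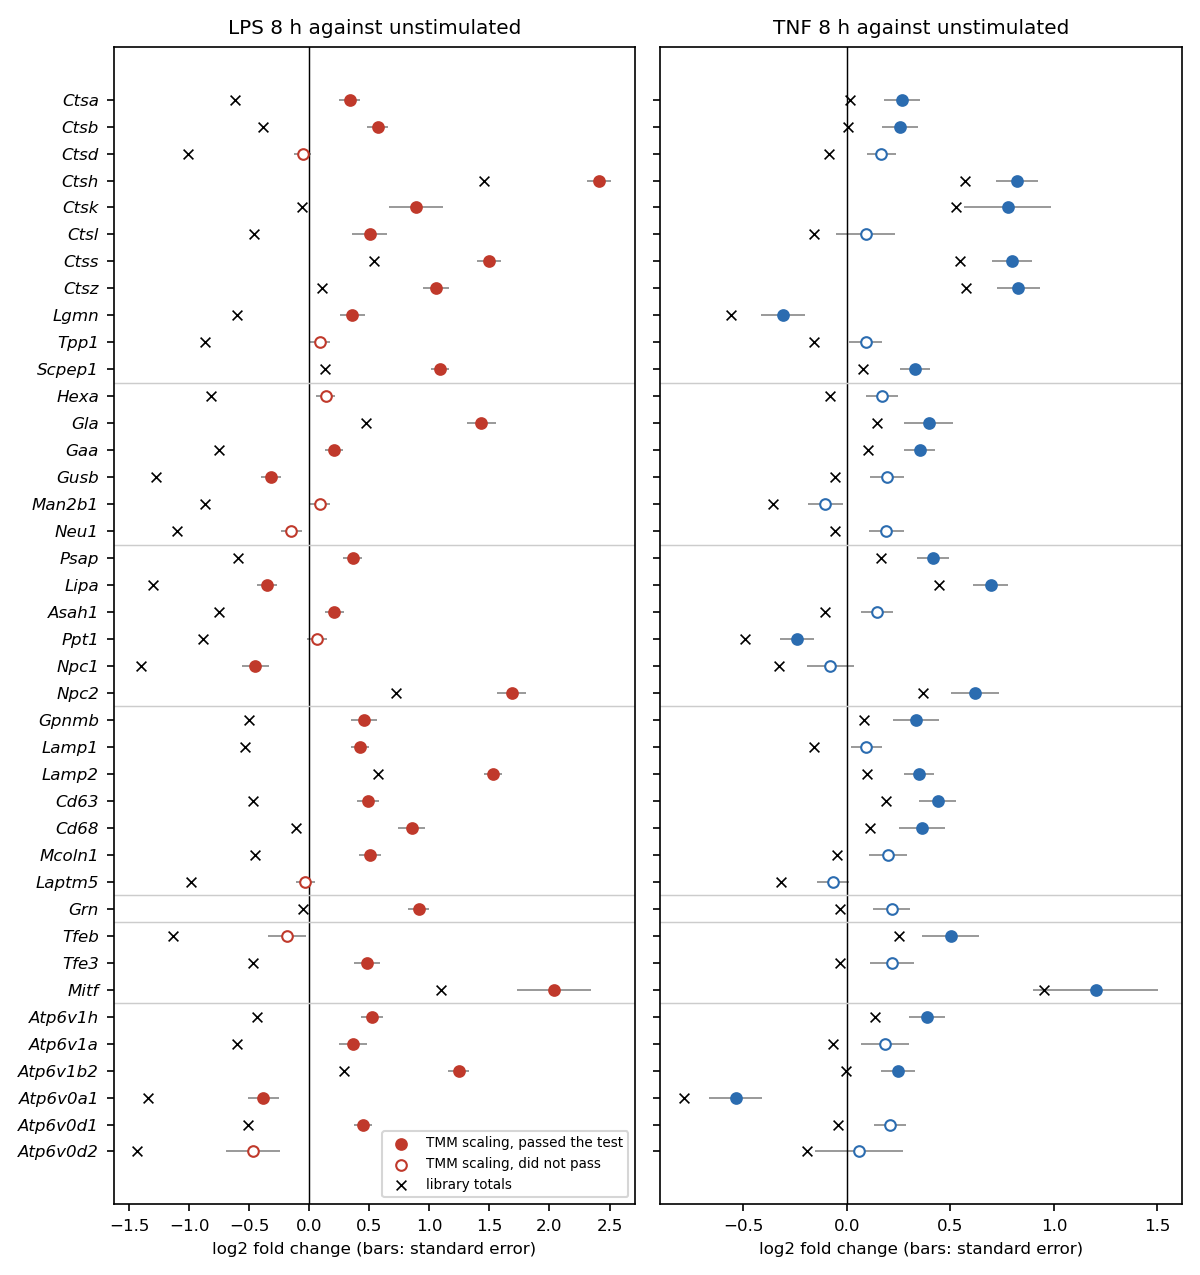
Log2 change ± SE of the 40 members at 8 h of LPS and 8 h of TNF against unstimulated cells with TMM (filled where the test passed, open where it did not), with the value under library totals as a black cross. The crosses lie lower throughout, and in LPS most fall below 0, while those of Ctsh, Mitf, Npc2, Lamp2, Ctss, Gla and Atp6v1b2, called under all 4 scalings, are above it.

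The direct comparison asked which members LPS and TNF moved differently at matched times, over both genotypes. None differed at 0.5 h (0.0442% and 0% of all tested genes were higher and lower in LPS) or at 1 h (0.92% and 0.283%), with 0 below an unadjusted p of 0.05 and 0 called by DESeq2 and limma-voom. At 3 h 5 members were higher in LPS and 3 lower, against 16.9% and 14.4% of all genes. Tfeb led with -2.36 ± 0.17 (adjusted p = 2.8e-07), followed by Mitf at 1.45 ± 0.29 (adjusted p = 0.0031) and Tfe3 at -0.66 ± 0.11 (adjusted p = 0.00043). These 3 regulators and Neu1 (-0.26) held under all 4 scalings, whereas Npc2 (0.54), Lamp2 (0.40), Ctss (0.38) and Scpep1 (0.33) did not, and the last 3 turned to -0.00653, -0.03 and -0.07 with library totals.

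At 8 h 18 members were higher in LPS than in TNF and 6 lower, against 30% and 28.4% of genes. Ctsh (1.59 ± 0.10, adjusted p = 3.3e-08), Lamp2 (1.18), Npc2 (1.07), Gla (1.04) and Atp6v1b2 (1.00) were higher in LPS under all 4 scalings. The 6 lower in LPS were Lipa (-1.04 ± 0.08, adjusted p = 3e-07), Tfeb (-0.68 ± 0.16, adjusted p = 0.002), Gusb (-0.51), Npc1 (-0.37), Neu1 (-0.34) and Ctsd (-0.22). All 6 were called under all 4 scalings too, but library totals and upper-quartile factors move such values down, so that check could hardly fail for them. Mitf stood at 0.83 ± 0.29 (adjusted p = 0.031), but at 0.02 (adjusted p = 0.91) without the WT library at 8 h of LPS and 1.34 without the knock-in one. That call was also lost with library totals (0.15), upper-quartile factors (0.57), no filter on low counts (adjusted p = 0.11) and limma-voom (adjusted p = 0.063), and without WT at 8 h of TNF (adjusted p = 0.14) or the knock-in at 3 or 8 h of TNF (adjusted p = 0.059 and 0.094). In all genes the share of calls higher in LPS at 8 h was 17.4% with library totals and 34.7% with upper-quartile factors. With those scalings 5 and 9 members were higher and 30 and 15 lower. TMM gave 3391 higher and 3215 lower. The 3 h comparison (1913 higher and 1626 lower with TMM) had 16.6% and 32.5% of calls higher, with 1 and 3 members higher and 29 and 9 lower.

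The genotype comparison asked which members differed between the knock-in and WT libraries. Over the 9 conditions 17 members were higher in the knock-in and 0 lower, against 10.3% and 9.46% of all tested genes. Of 25 members below an unadjusted p of 0.05 none was lower, and DESeq2 called 22 higher and limma-voom 18, each with 0 lower. The median member was at 0.11 on the log2 scale and the median of all genes at -0.005. Of the 40 members, 22 were higher in the knock-in in 9 of 9 pairs, as were 6.68% of all tested genes, and 39 had a fitted difference within 0.5. None of the 17 turned under another scaling, and 15 were called under all 4, with Asah1 and Ctss the exceptions. Library totals moved the median of all genes by -0.0757 and left 27.9% of all calls higher in the knock-in, where TMM gave 1162 higher and 1070 lower.

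Cathepsin L (Ctsl), a cysteine protease that also processes other enzymes, showed the largest genotype difference. WT Ctsl was 692 CPM unstimulated, 674, 737, 782 and 800.0 in LPS and 681, 738, 741 and 666 in TNF, whereas knock-in Ctsl was 895, then 998, 1149, 1569 and 1547 in LPS and 886, 1008, 1083 and 1062 in TNF. No WT library reached the lowest knock-in library. The fitted difference was 0.62 ± 0.07 (adjusted p = 3.5e-05), and single pairs ranged from 0.37 unstimulated to 1.00 at 3 h of LPS. Lgmn was 1433 CPM in unstimulated WT, 1390.0, 1451, 1374 and 1617 in LPS and 1466, 1429.8, 1313 and 1014 in TNF. Knock-in Lgmn was 1761, then 1799.6, 1864, 1905 and 2559 in LPS and 1789, 1840.5, 1862 and 1615 in TNF. The knock-in was higher in 9 of 9 pairs, with a difference of 0.44 ± 0.05 (adjusted p = 4.1e-05).

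Atp6v0a1 followed with 0.39 ± 0.06 (adjusted p = 0.00054), Cd68 with 0.36 ± 0.05 (adjusted p = 0.00031) and Gpnmb with 0.29 ± 0.05 (adjusted p = 0.0017), each higher in 9 of 9 pairs. For Atp6v0a1, WT values were 676 CPM unstimulated, 686, 674, 543 and 411 in LPS and 685, 672, 631 and 430.0 in TNF. Its knock-in values were 775, then 817, 899, 722 and 734 in LPS and 791, 823, 886 and 581 in TNF. WT Cd68 was 1276 CPM unstimulated, 1346, 1355, 1461 and 1953 in LPS and 1313, 1316, 1316 and 1481 in TNF. Knock-in Cd68 was 1488, then 1569, 1619, 1968 and 3142 and 1583, 1635, 1661 and 2123. The gap in both genes was widest at 8 h of LPS, at 0.84 for Atp6v0a1 and 0.69 for Cd68. For Gpnmb, pairs ranged from 0.15 to 0.58.

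Atp6v0d2 was 0.37 ± 0.10 higher in the knock-in (adjusted p = 0.026), with single pairs from near 0 at 0.5 h of TNF to 1.09 at 8 h of TNF, and higher in 8 of 9. It missed the threshold without low-count filtering (adjusted p = 0.079) and without either library at 3 or 8 h of LPS (adjusted p = 0.056). Atp6v1b2 (0.25), Scpep1, Npc2, Grn and Hexa (0.24 each), Man2b1 (0.19), Lamp2 and Ctsb (0.18 each), Psap (0.17), Ctss (0.16) and Asah1 (0.11) completed the 17. Atp6v0d1 (0.04) and the regulators Mitf (0.15 ± 0.14, adjusted p = 0.51), Tfeb (0.09) and Tfe3 (-0.08) did not pass. Mitf was higher in the knock-in in 8 of 9 pairs and stood at -1.02 at 8 h of LPS. By role, 5 of 11 proteases and peptidases, 2 of 6 glycosidases, 3 of 6 lipid and cholesterol genes, 3 of 7 membrane proteins, Grn, 0 of 3 MiT/TFE factors and 3 of 6 V-ATPase subunits were higher. Among all tested genes 10.3% were higher.

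Markers of other cells differed between the genotypes as well. The neutrophil markers summed to 155 to 315 CPM in WT and 72.8 to 211 in knock-in libraries, and fibroblast and stroma markers to 98.0 to 189 in WT and 13.7 to 71.4 in the knock-in, with none of either list at 0. Dendritic cell markers summed to 1.37 to 8.83 CPM over all libraries, mast cell markers to 1.48 to 32.9 with Fcer1a at 0, and lymphocyte markers to at most 1.77 with Ncr1 at 0. Their part in the genotype result was not tested.

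**Figure D4:**
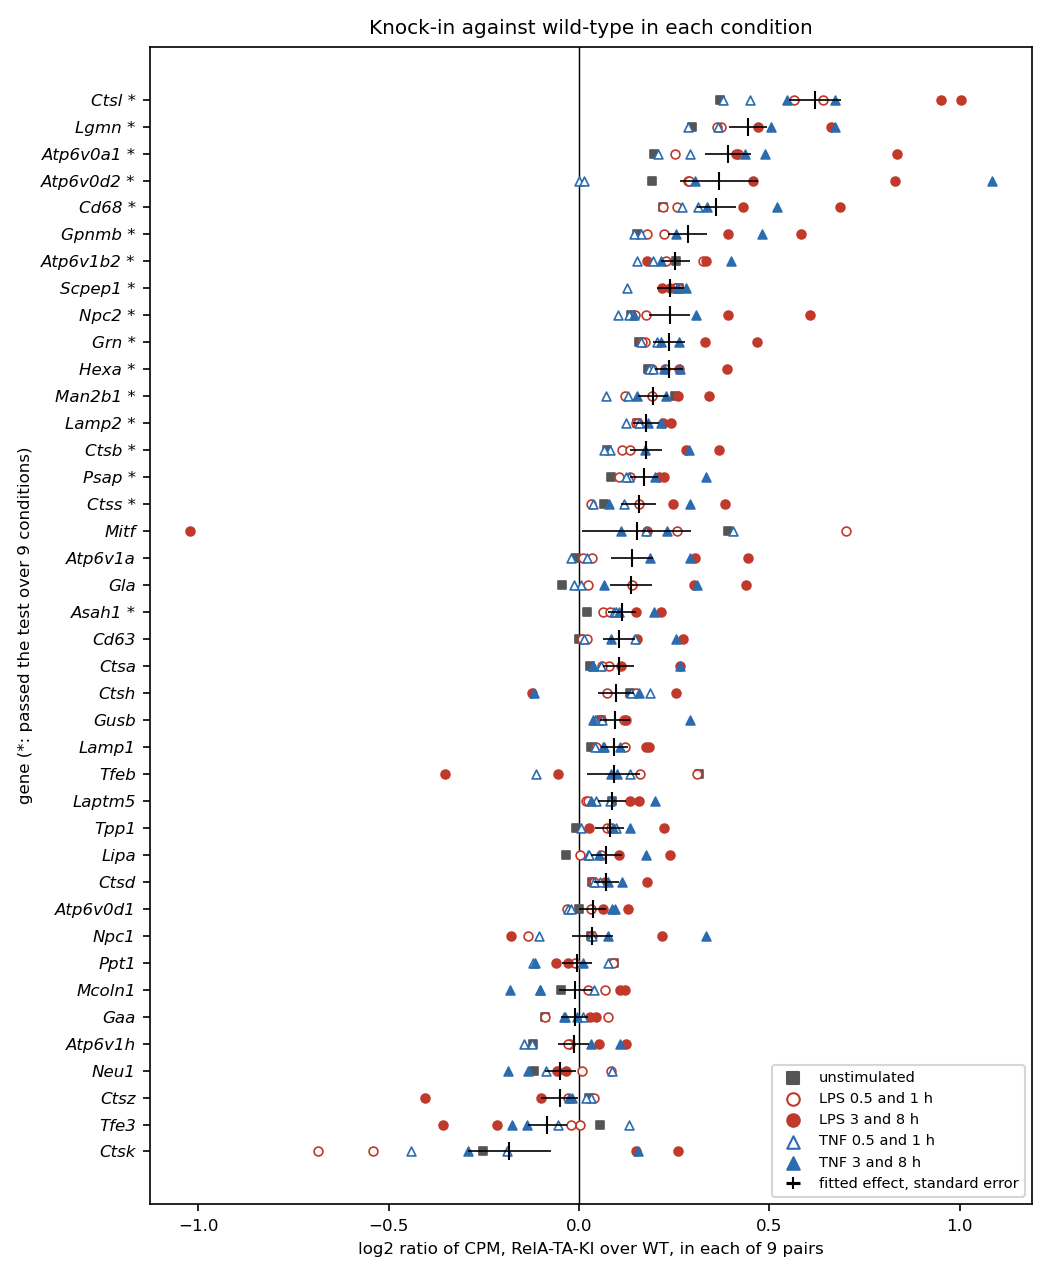
Log2 ratio of knock-in to WT CPM in each of the 9 pairs (grey squares unstimulated, red circles LPS with early times open, blue triangles TNF), with the fitted difference ± SE as a black tick and an asterisk where it passed, sorted by fitted difference. Ctsl, at 0.37 to 1.00, leads, and Mitf has 1 pair at -1.02 with the other 8 above 0.

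Within LPS alone, over its 4 times, 12 members were higher in the knock-in and 0 lower, against 5.47% and 4.52% of genes, and within TNF alone 5 were higher and 0 lower, against 2.41% and 2.91%. The 5 in TNF were Ctsl (0.51 ± 0.08, adjusted p = 0.0053), Lgmn (0.46 ± 0.08, adjusted p = 0.006), Cd68 (0.36), Atp6v0a1 (0.36) and Scpep1 (0.23), and all but Scpep1 held under all 4 scalings. The calls of Atp6v0a1 (0.31 to 0.41) and Scpep1 (0.22 to 0.27) were each lost without any 1 of the 8 TNF libraries. In LPS, Ctsl stood at 0.79 ± 0.09 (adjusted p = 0.00026), Atp6v0a1 at 0.48, Lgmn at 0.47, Cd68 at 0.40 and Gpnmb at 0.34 (adjusted p = 0.018). The Gpnmb call was lost without either library at 3 h of LPS, where its value was 0.33. The 12 in LPS became 5 without either library at 3 h of LPS. The 5 in TNF became 2 without any 1 of the 8 TNF libraries, 3 without either library at 1 or 3 h of LPS and 11 without either library at 8 h of LPS, and DESeq2 and limma-voom each called 9. With library totals 39.6% of all calls were higher in LPS and 29.1% in TNF, where TMM gave 619 higher and 511 lower in LPS and 273 and 329 in TNF. The difference between the LPS and TNF genotype effects was tested itself and called 0 members (0% of genes higher, 0% lower), with 1 below an unadjusted p of 0.05 and 0 called by DESeq2 and limma-voom.

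The genotype gap was numerically wider late. The median over the members was 0.07 in unstimulated cells and 0.22 at 8 h of both LPS and TNF, and 31 to 35 of the 40 were higher in the knock-in in each condition. The test of late (3 and 8 h) against early (0.5 and 1 h) gaps called 0 members (0.318% of genes higher, 0.0796% lower), with 13 below an unadjusted p of 0.05, and DESeq2 called 1 and limma-voom 0. It called 1 without either library at 3 h of TNF. Gpnmb had a difference of gaps of 0.25 ± 0.07 (adjusted p = 0.18) and Atp6v0d2 of 0.51 ± 0.16 (adjusted p = 0.25), so a widening with time did not pass for either.

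Set beside the promoter matches, the 9 members with TCACGTG had 8 higher and 0 lower at 8 h of LPS with TMM (median 0.36). The 24 without it had 14 higher and 3 lower (median 0.47). Of all tested genes, 33.8% rose and 33.9% fell. Library totals turned Ctsa, Mcoln1, Lamp1, Atp6v0d1, Gaa, Lgmn and Atp6v1a of the 9 to negative values. Over all members that scaling gave 7 higher and 28 lower. In TNF at 8 h the 9 had 3 higher and 1 lower (median 0.20), and the 24 had 13 and 2 (median 0.33). There 17.1% of all tested genes rose and 14.8% fell. For the genotype difference, 1 of the 9 (Lgmn) and 12 of the 24 were higher, against 10.3% of all tested genes. The 8 members with a kB-type match had 7 higher and 0 lower at 8 h of LPS (median 0.45). The 25 without had 15 and 3 (median 0.36). Library totals turned Lamp1, Psap, Grn, Lgmn and Tfe3 of the 8 to negative values. At 8 h of TNF the 8 had 3 higher and 1 lower (median 0.22), and the 25 had 13 and 2 (median 0.26). As to genotype, 3 of the 8 and 10 of the 25 were higher in the knock-in. Among the promoters printed above with TCACGTG, Lamp1 (0.43), Mcoln1 (0.50), Atp6v1a (0.36) and Ctsa rose modestly at 8 h of LPS with TMM. These turned to negative values with library totals, to -0.62 for Ctsa. Gla (1.43) rose under all 4 scalings, and Ctsd (-0.06) did not pass.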

How the data were processed

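The authors deposited raw gene counts, 1 column per library, with mm10 gene coordinates. Per the labels' protocols, poly(A) libraries came from a stranded KAPA kit, sequenced single-end to 50 bases. Per the submitters' processing notes, cutadapt 1.12, STAR, featureCounts 1.5.0 and DESeq2 were used. Neither the strand setting nor an annotation release is given in the sources used here. Of the gene identifiers, 45143 had a symbol.

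Tests ran in R 4.3.3 with edgeR 4.0.16: filterByExpr (minimum count 10, minimum total 15), TMM factors (0.568 to 1.20), robust quasi-likelihood tests and Benjamini-Hochberg adjustment at 0.05 over all 11308 genes. The model had condition (9 levels) and genotype as additive terms, with 8 residual degrees of freedom. Genotype effects by stimulus and by late against early times had their own models. The common biological coefficient of variation was 0.111. SE is the absolute log2 change divided by the square root of F, an approximation. CPM used TMM-scaled totals, and fold changes are on the log2 scale. The tests of LPS at 8 h and of genotype over 9 conditions were also run on counts simulated from the fitted model. Such counts hold no differences between cultures, so that run cannot show how the tests behave with them. Totals of 4663650 to 6721917 counts limit precision mainly for Tfeb and Ctsk.

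Values in every library are given for Gpnmb, the MiT/TFE factors, both d subunits, up to 4 called members with the largest rise and fall at 8 h of each stimulus, and the 3 with the largest genotype difference; Gla and Cd68 were added after their values were seen. Of each further list the 2 largest called changes in each direction are named, except 1 gene that is not reported here. Members and lists were chosen with earlier results of these data known. Alternatives were DESeq2 size factors, upper-quartile factors, library totals, limma-voom (limma 3.58.1), DESeq2 1.42.0, no filter on low counts, at least 1 CPM in 9 libraries or more, a minimum log2 change of 1, and leaving out each library. Promoters are RefSeq windows of GRCm38.p6.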

Additional observations from a re-analysis of the deposited data

How the results depend on the processing

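The scaling bore most on these results. With library totals, log2 values that were positive with TMM turned negative at 3 h of LPS for Atp6v1h (-0.11), Ctsz (-0.16), Ctss (-0.0405), Lamp1 (-0.33), Atp6v1b2 (-0.26), Cd68 (-0.24), Scpep1 (-0.0496), Grn (-0.29), Ctsl (-0.035), Ctsb (-0.27), Atp6v1a (-0.16) and Gla (-0.13), and with upper-quartile factors for Lamp1 (-0.0696), Atp6v1b2 (-0.00137), Grn (-0.0297) and Ctsb (-0.0102). At 8 h of LPS they turned with library totals for Atp6v1h (-0.43), Ctsa (-0.62), Ctsk (-0.0612), Gpnmb (-0.50), Mcoln1 (-0.45), Lamp1 (-0.53), Asah1 (-0.75), Atp6v0d1 (-0.51), Psap (-0.59), Cd63 (-0.47), Cd68 (-0.11), Grn (-0.0482), Gaa (-0.75), Lgmn (-0.60), Ctsl (-0.46), Ctsb (-0.39), Atp6v1a (-0.60) and Tfe3 (-0.47), and with upper-quartile factors for Ctsa (-0.0624), Asah1 (-0.19), Psap (-0.0366), Gaa (-0.19), Lgmn (-0.0399) and Atp6v1a (-0.0383). In TNF at 8 h Atp6v1b2 turned (-0.00313). Between LPS and TNF they turned at 3 h for Ctss (-0.0272), Scpep1 (-0.0708) and Lamp2 (-0.00653), and at 8 h for Ctss (-0.0122), Ppt1 (-0.40), Mcoln1 (-0.40), Lamp1 (-0.37), Atp6v0d1 (-0.47), Cd68 (-0.22), Grn (-0.0145), Lgmn (-0.0392), Ctsl (-0.30), Ctsb (-0.40) and Tfe3 (-0.43), all with library totals, and for Atp6v0d1 (-0.0321) and Tfe3 (-0.00262) with upper-quartile factors. No genotype value turned. The cause was not tested.

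Counts of members higher and lower moved as follows. Library totals gave 1 lower at 1 h of LPS, 1 and 28 at 3 h, 7 and 28 at 8 h, 0 higher at 3 h of TNF, 8 and 7 at 8 h, and between LPS and TNF 1 and 29 at 3 h and 5 and 30 at 8 h. Upper-quartile factors gave 6 and 17, 11 and 15, 1 higher, 13 and 5, 3 and 9, and 9 and 15 for the same comparisons from 3 h of LPS on. A minimum log2 change of 1 left 10 in LPS and 1 in TNF over all times, 1 and 1 at 3 h of LPS, 9 and 0 at 8 h, 1 at 3 h of TNF, and 1 and 0 at 8 h. Without the filter on low counts 2 were higher at 3 h of TNF. DESeq2 called 1 higher at 1 h of LPS, 9 for the genotype effect in TNF and 1 for late against early, and limma-voom 9 in TNF.

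Leaving out 1 library at a time gave 5 to 24 members over all TNF times, 8 to 16 higher and 1 to 4 lower at 3 h of LPS, 0 to 6 higher at 3 h of TNF, 11 to 26 higher and 0 to 3 lower at 8 h of TNF, 5 to 12 for the genotype effect in LPS, 2 to 11 in TNF, and 0 to 1 for late against early. The genotype count over 9 conditions ranged from 14 to 18.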

Other observations

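Other genes of the lysosome, from 6 lists outside the 40, were read in the same tests, with the 2 largest called log2 changes in each direction named. Beside their counts, 33.8% of all tested genes rose and 33.9% fell at 8 h of LPS, 17.1% and 14.8% at 8 h of TNF, and 10.3% and 9.46% were higher and lower in the knock-in. Of 12 further V-ATPase subunits and accessory proteins, 11 rose and 0 fell at 8 h of LPS with TMM, with Atp6v1d (2.10) and Tcirg1 (1.78) at the head. Both stayed higher with library totals (1.13 and 0.83), where the counts were 5 and 5. At 8 h of TNF 8 rose and 0 fell, Tcirg1 and Atp6v0b (0.71) among them (4 and 0 with library totals). For genotype 1 was higher in the knock-in (Atp6ap1, 0.13) and 1 lower (Atp6v1e1, -0.13), against 0 and 1 with library totals. Among 28 further hydrolases, 11 rose and 6 fell in LPS (5 and 22 with library totals). Acp5, a phosphatase also used as an osteoclast marker, rose by 4.67 from low levels, 0.65 to 32.6 CPM over the libraries, and Ctsc, which activates granule proteases, by 2.16. Sgsh, a heparan sulfatase, fell by 3.35 and Galc, a galactosylceramidase, fell by 1.36. In TNF 9 hydrolases rose (Acp5 by 3.24, Acp2 by 1.59) and 2 fell (Sgsh -1.59, Arsb -0.34), against 3 and 6 with library totals, and in the knock-in 7 were higher (Gm2a 0.30, Arsa 0.28) and 2 lower (Acp5 -1.88, Ctso -0.20), against 2 and 6.

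Of 17 further membrane proteins, 9 rose and 4 fell in LPS (6 and 10 with library totals): the peptide transporter gene Slc15a3 (2.68) and the chloride transporter gene Clcn7 (2.25) led the rises, and the channel gene Tpcn1 (-1.47) and the cystine exporter gene Ctns (-1.27) the falls. In TNF 7 rose (Clcn7 1.51, Slc15a3 1.05) and 2 fell (Tpcn1 -0.58, Laptm4b -0.51), and 3 were higher (Tpcn2 0.38, Laptm4b 0.32) and 2 lower (Slc11a1 at -0.29 among them) in the knock-in. Library totals gave 5 and 7 in TNF and 3 and 3 for genotype. Of 11 enzyme-sorting genes 4 rose (M6pr 1.56, and Vps26a 0.67, which turned to -0.28 with library totals) and 2 fell (Gga2 -1.97, Sort1 -1.59) in LPS, with 1 and 10 under library totals. TNF raised 2 of them (M6pr 0.71, Igf2r 0.68) and lowered 2 (Sort1 -0.73, Gnptab -0.64), and 2 were higher (Gnptab 0.24, Gga1 0.15) and 1 lower (Sort1 -0.33) in the knock-in, against 1 and 3, and 0 and 3, with library totals. A further list held Rag and Ragulator genes, which recruit mTORC1 to the lysosome, together with Flcn, Fnip1, Fnip2, Mtor and Rptor. Of its 13 tested genes, 5 rose and 2 fell in LPS (0 and 10 with library totals). Rragc (0.93) and Lamtor1 (0.76) turned to -0.02 and -0.20 with library totals, while Rragd fell by 3.05 and Lamtor4 fell by 0.67. In TNF Lamtor1 rose (0.43) and Rragd fell (-0.54), and 3 were higher in the knock-in (Rraga 0.38, Lamtor1 0.33) and 0 lower, against 0 and 3, and 2 and 2, with library totals. Of 13 autophagy genes 5 rose (the cargo receptor gene Sqstm1 by 1.85, Atg16l1 by 1.42) and 4 fell (Wipi1 -1.12, Atg7 -0.89) in LPS, with 2 and 11 under library totals. In TNF 4 rose (Sqstm1 2.01, Atg5 0.66) and 1 fell (Wipi1 -0.59), and 0 were higher and 2 lower (Uvrag -0.20, Atg5 -0.16) in the knock-in, against 2 and 4, and 0 and 2, with library totals.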
